A study of Mus musculus with 13 samples.

Results

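The oxidative phosphorylation genes examined here are the subunits of complexes I to V and cytochrome c, taken as every gene on the array whose symbol starts with Nduf, Sdha to Sdhd, Uqcr, Cox4 to Cox8 or Atp5, plus Cycs and Cyct. The rule found 89 genes with 139 probes, and 81 of these genes, with 112 probes, had a probe detected at a detection p under 0.05 on at least 3 of 13 arrays, out of 14660 genes or unnamed probes that passed the same filter. The 81 genes comprise 33 of complex I, 3 of complex II, 7 of complex III, 13 of complex IV, 16 of complex V, 7 assembly factors that carry a Nduf symbol, cytochrome c (Cycs) and the pseudogene Ndufs5-ps. Ndufa4 was counted with complex IV, where its protein is found. RNA of round spermatids, the haploid germ cells that follow meiosis, was hybridized to 13 single-colour Illumina mouse BeadChips, 1 per cell preparation, to ask how spermatids deficient for the X-linked Slx/Slxl1 genes, the Y-linked Sly genes or both differ from wild type. There were 3 shSLX1shSLY arrays (both transgenes, deficient for Slx/Slxl1 and Sly), 3 shSLY arrays (deficient for Sly), 3 shSLX1 arrays (deficient for Slx/Slxl1) and 4 WT arrays from males without a transgene. All males were young adults of about 8 weeks on the MF1YRIII background, and the transgenes lower the target RNA by short hairpins, so the genes themselves were intact. Each preparation pooled testes of several males and was enriched for round spermatids by elutriation or by sedimentation, so a difference between samples can come from RNA per cell or from the mix of cells, which cannot be told apart here.

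Oxidative phosphorylation couples the oxidation of NADH and succinate to ATP synthesis at the inner mitochondrial membrane. Complex I and complex II pass electrons to ubiquinone, complex III passes them to cytochrome c, complex IV passes them to oxygen, and complex V uses the resulting proton gradient to make ATP. Male germ cells are known for replacing several somatic subunits by testis isoforms, among them Cox6b2, Cox7b2 and Cox8c of complex IV and Cyct, the testis form of cytochrome c.

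Values are log2 intensities after background correction and quantile normalization, a log2 difference of 1 is a doubling, and the figure after ± beside a log2 difference is its standard error. Between 16110 and 19057 probes were detected per array, and arrays of 1 group correlated with r between 0.974 and 0.996. The background signals of the 20382 probes detected on no array sorted the arrays into 3 sets. Set 1 held WT 1 and 2 with shSLY 1 and 2, set 2 held WT 3 and 4 with shSLX1 1 and 2, and set 3 held shSLY 3, shSLX1 3 and all 3 shSLX1shSLY arrays. According to the methods, the WT and part of the single knockdown preparations had been reported before the others. Group by group, the numbers of those earlier preparations are those of sets 1 and 2 combined, which leaves the make-up of set 3, although which arrays they were is not stated. Set 3 holds no WT array, so shSLX1shSLY against WT always runs between sets. The 1 probe for Sly read between 10.30 and 10.63 on shSLX1shSLY arrays, between 10.08 and 10.71 on shSLY arrays, between 8.65 and 10.21 on shSLX1 arrays and between 9.85 and 10.35 on WT arrays. It was thus not lower on the arrays labelled shSLX1shSLY or shSLY than on WT arrays, which part of the multicopy transcripts it reads is not stated, and group names follow the labels. The paper reports lowered Sly transcripts in round spermatids of both genotypes by real-time PCR, and no detectable SLY1 protein. No probe was assigned to Slx or Slxl1 alone, so their knockdown was not checked here. Of the round spermatid markers tested, among them Prm1 and Acrv1, 0 of 7 were called against WT (0 higher and 1 lower in shSLX1shSLY at an unadjusted p under 0.05, 1 and 0 in shSLY, 0 and 1 in shSLX1), and their summed linear signal ranged from 67601 to 72509 on shSLX1shSLY arrays, from 67828 to 71377 on shSLY arrays, from 70841 to 74640 on shSLX1 arrays and from 63227 to 75785 on WT arrays.

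**Figure D1:**
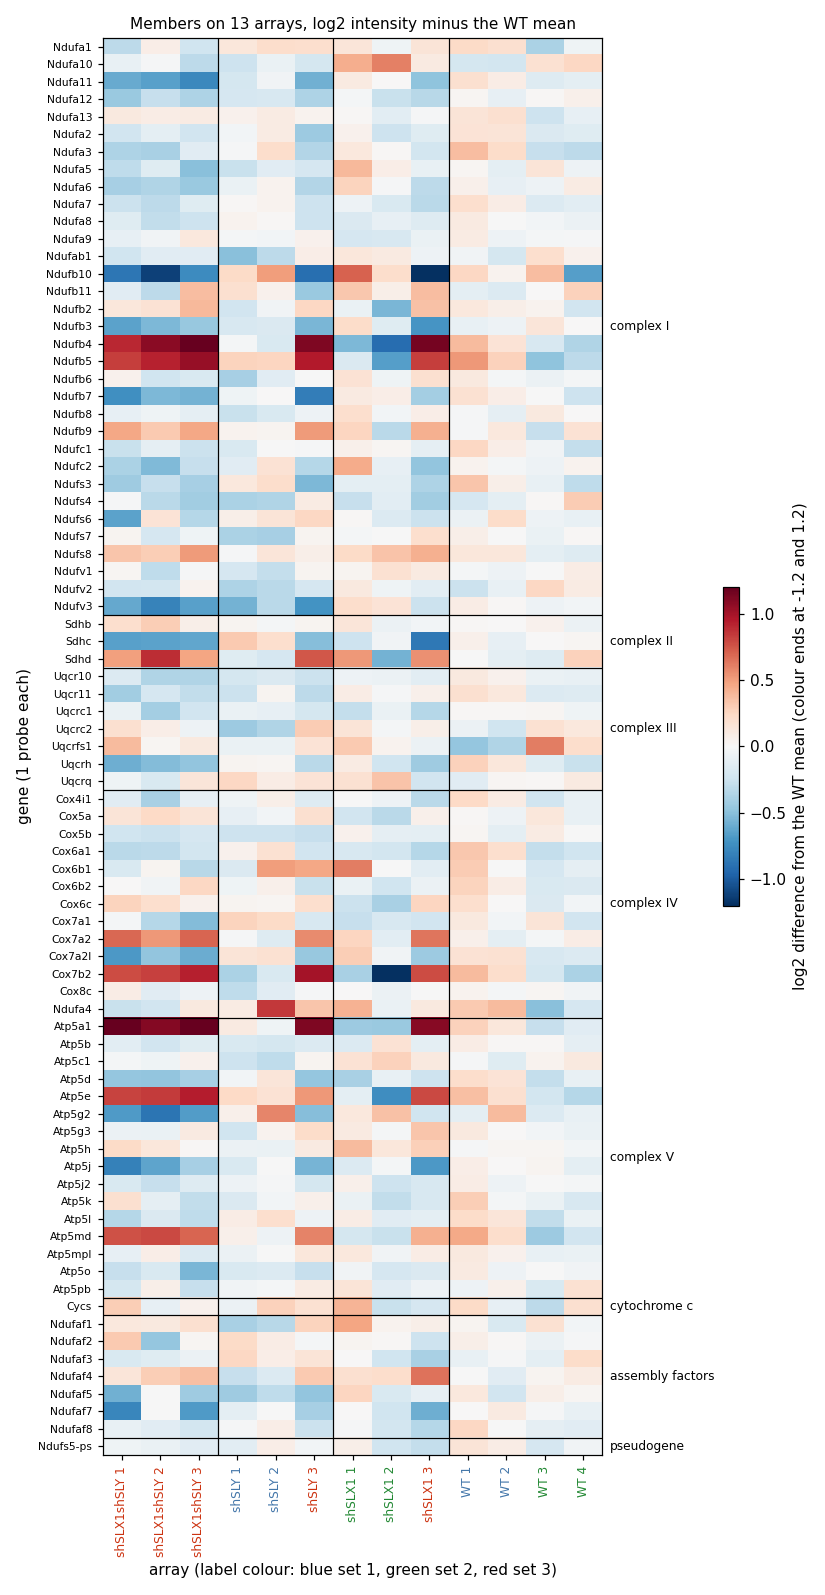
Heat map of 81 genes (rows, grouped by complex) on 13 arrays (columns, shSLX1shSLY, shSLY, shSLX1 and WT), with colour for the log2 intensity minus the mean of the 4 WT arrays and array labels coloured by set. The strongest colours, for example in Atp5a1, Ndufb4, Ndufb10 and Cox7b2, run down the columns of all 5 arrays of set 3.

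In shSLX1shSLY spermatids, 3 of the 81 genes were called higher and 4 were called lower than in WT, where a call needs an adjusted p under 0.05 and a change over 1.5-fold. Of all 14660 genes tested, 4.86% were called higher and 4.03% lower. The genes called higher were Atp5a1, Atp5md and Cox7a2, and those called lower were Ndufv3, Ndufa11, Atp5j and Atp5g2. At an unadjusted p under 0.05, 9 members were higher and 18 lower. The 3 arrays did not overlap with the 4 WT arrays for 14 members that were higher and 23 that were lower, or 17.3% and 28.4% of members, and this was so for 16.8% and 18.0% of all genes. The median log2 difference was -0.14 over the members, with 22 above 0 and 59 below, and -0.02 over all genes. With the arrays scaled to a common median instead of quantile normalized, 0 members were called higher and 19 lower in this comparison (23.5% of members in all), and of all genes 1.23% were called higher and 16.9% lower. That scaling moved the median of all genes to -0.30 and the members' median to -0.52, so the members lay below all genes under both scalings. With the array set as a block in the fit, 0 of the 7 genes were called.

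Neither single knockdown had a called member, with 0 of 81 against WT in each. In shSLY against WT, 2.33% of all genes were called higher and 0.750% lower, and at an unadjusted p under 0.05 limma had 0 members higher and 3 lower. The arrays of the 2 groups did not overlap for 0 members that were higher and for 10 (12.3%) that were lower in shSLY, against 8.59% and 8.71% of all genes. The 10 were Ndufv3, Ndufb3, Ndufa5 and Ndufa12 of complex I, Uqcr10 and Uqcrc1 of complex III, Cox5b of complex IV, Atp5b and Atp5o of complex V and the assembly factor Ndufaf5. The members' median was -0.06, against -0.02 for all genes, and leaving out WT replicate 1 turned it to 0.0043. In shSLX1 against WT, 1.67% of all genes were called higher and 0.109% lower. Here 4 members were higher and 0 lower at an unadjusted p under 0.05, and the arrays did not overlap for 4 that were higher and 3 that were lower (4.94% and 3.70%), against 6.55% and 5.79% of all genes. The median was -0.03 over the members and -0.02 over all genes. The 95% interval of the difference lay within 1.5-fold in both directions for 63 of 81 members in shSLY against WT and for 59 in shSLX1 against WT, or 77.8% and 72.8%, while this was so for 53.6% and 56.4% of all genes. The members were also brighter, with a median WT log2 intensity of 10.13 against 6.66 over all genes, and 71 of 81 lay above the latter. These shares were not compared at matched intensity. Every alternative processing that was run also gave 0 calls in shSLY and in shSLX1 against WT.

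Between the double and the single knockdowns, 0 members were called in shSLX1shSLY against shSLY, where 0.0614% of all genes were called higher and 0.0409% lower, and 4 members were higher and 9 lower at an unadjusted p under 0.05. Against shSLX1, 0 members were called higher and 2, Ndufv3 and Atp5g2, lower in shSLX1shSLY, with 3.56% of all genes called higher and 3.98% lower. For the interaction of the deficiencies, which asks whether the double knockdown differs from the sum of the single ones, 0 members were called, while 0.0887% of all genes had an excess and 1.28% a deficit. At an unadjusted p under 0.05 the interaction had 0 members above and 1 member, Atp5g2, below (log2 -0.87 ± 0.33, adjusted p = 0.351). Array quality weights in limma, which lower the weight of arrays that deviate, gave 12 calls against shSLY, 13 against shSLX1 and 6 for the interaction (14.8%, 16% and 7.41% of members), where 17.7%, 16.2% and 8.52% of all genes were called.

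**Figure D2:**
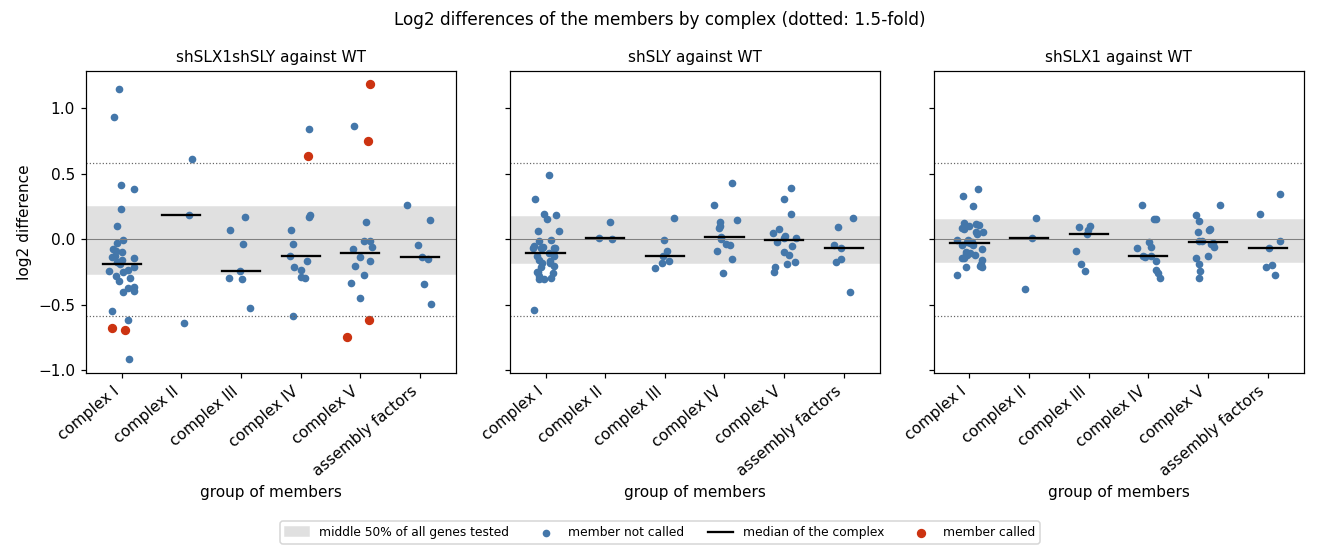
Log2 differences (y axis) of the members by complex (x axis) in shSLX1shSLY, shSLY and shSLX1 against WT. Each point is 1 gene (red, called), the black bar is the median of the complex, the grey band runs between the quartiles of all genes tested and dotted lines mark 1.5-fold. In shSLX1shSLY the median of complex I is -0.19 and called genes occur in complexes I, IV and V.

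By complex, the shSLX1shSLY medians against WT were -0.19 for complex I (6 of 33 above 0), 0.19 for complex II (2 of 3), -0.24 for complex III (2 of 7), -0.13 for complex IV (5 of 13) and -0.10 for complex V (4 of 16). Complex I medians lay between -0.23 and -0.22 on the 3 shSLX1shSLY arrays, at -0.08, 0.00 and -0.21 on shSLY arrays, at 0.11, -0.05 and -0.11 on shSLX1 arrays, and between -0.06 and 0.10 on WT arrays, each relative to the WT mean. The shSLY and shSLX1 arrays of set 3 had the lowest complex I median of their groups. In shSLY against WT the complex medians ran from -0.13 (complex III) to 0.02 (complex IV), and in shSLX1 against WT from -0.13 (complex IV) to 0.05 (complex III).

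**Figure D3:**
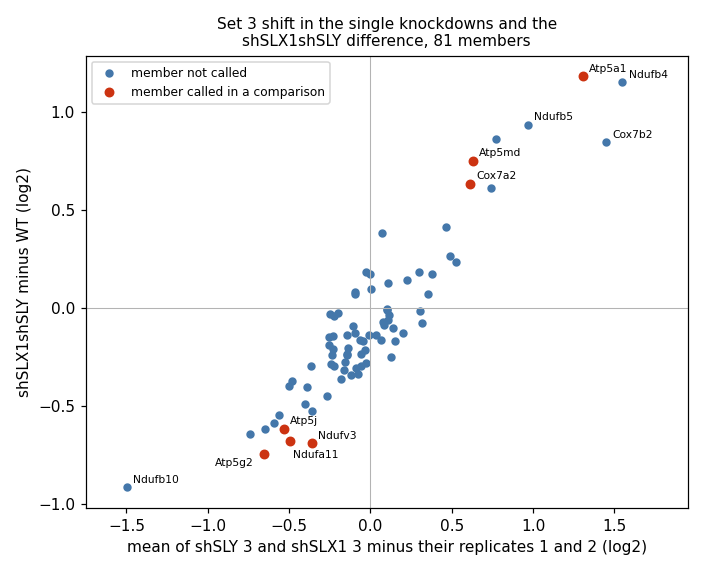
Each point is 1 of 81 members. The x axis is the log2 value of replicate 3 minus the mean of replicates 1 and 2, averaged over shSLY and shSLX1, and the y axis is the log2 difference of shSLX1shSLY minus WT. The points lie along a line (r = 0.92), with Ndufb10 at the lower left and Ndufb4, Atp5a1 and Cox7b2 at the upper right.

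For 5 of the 7 genes called in shSLX1shSLY against WT, all but Ndufv3 and Atp5md, the arrays of set 3 stood apart from all others whatever their genotype. The 5 arrays of set 3 lay above all 8 others for 8 members (9.88%) and below all others for 12 (14.8%), against 7.17% and 7.11% of all genes. Those above were Ndufb9, Ndufb2, Cox7a2, Atp5e, Ndufb5, Atp5a1, Cox7b2 and Ndufb4, and those below were Ndufb10, Sdhc, Atp5g2, Ndufb7, Cox7a2l, Ndufb3, Atp5j, Ndufc2, Ndufa11, Ndufa6, Uqcrh and Ndufa12. Of these 20 genes, 2, Atp5j and Ndufb10, had another probe detected on all arrays, and on 0 of the 2 probes did set 3 stand apart. In some other members, set 3 stood apart on a further probe detected on all arrays but not on the brightest one. It lay below all others for Cox5b, Cox6a1, Ndufa3, Ndufa8, Ndufab1 and Ndufv3, and above for Ndufa5 and Ndufs4. On the further all-array probes of the remaining members with several probes, set 3 did not stand apart. Within the single knockdowns, the shift of replicate 3 from replicates 1 and 2 in shSLY correlated across the 81 members with that in shSLX1 (r = 0.78), and the mean of the 2 shifts correlated with shSLX1shSLY minus WT (r = 0.92). Over all genes the same correlations were 0.46 and 0.71. No array enters more than 1 of these 3 differences, the points are genes and not replicates, and the labels give no batch for the arrays of set 3. The part of the genotype and of the array set in these differences cannot be told apart in shSLX1shSLY against WT.

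The calls differed in how far they held over the alternative analyses, which changed the processing or left out single arrays. Leaving out an shSLY or shSLX1 array does not change the difference between shSLX1shSLY and WT. It alters only the estimate of the spread, so such fits challenge these calls less. Ndufv3 stayed below WT past the threshold in 23 of 25 alternative analyses, and was lost with the set as a block and without shSLX1shSLY replicate 2 (adjusted p = 0.0516). Ndufa11 was called in 18 of 25, Atp5a1 and Atp5j in 14 of 25, Cox7a2 in 13 of 25, Atp5g2 in 10 of 24 and Atp5md in 7 of 24. These 6 calls were all lost when WT replicate 2, WT replicate 4 or any 1 shSLX1shSLY replicate was left out. Without WT replicate 1, Ndufv3 and Atp5md were the 2 members still called, and without WT replicate 3 they were Ndufv3 and Ndufa11. Leaving out shSLY replicate 3 or shSLX1 replicate 3, the arrays of set 3 among the single knockdowns, raised the number of calls against WT to 13 in each case, and leaving out both raised it to 15. These were 16%, 16% and 18.5% of members, while the share of all genes called was 11.9%, 11.9% and 13.2%, against 8.64% of members and 8.89% of all genes with every array.

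The WT arrays also differed by set. WT 1 and 2 (set 1) were both above WT 3 and 4 (set 2) for 38 members and both below for 12, or 46.9% and 14.8%, against 33.8% and 27.6% of all genes. Members had a median SD of 0.11 within shSLX1shSLY, whose arrays are all of set 3, of 0.18 within shSLY, of 0.17 within shSLX1 and of 0.16 within WT, each of which spans 2 sets. Over all genes tested the median SD was 0.169 within shSLX1shSLY, 0.213 within shSLY, 0.244 within shSLX1 and 0.174 within WT.

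**Figure D4:**
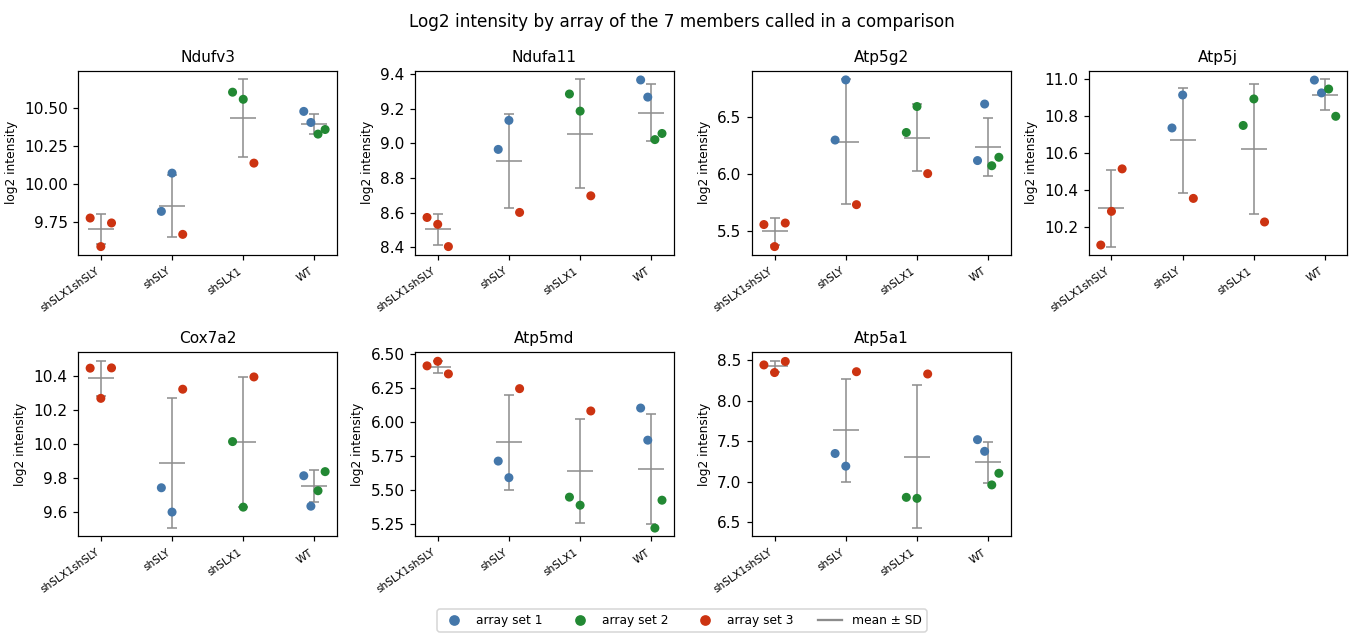
Log2 intensity (y axis) of the 7 called members in each array, by group (x axis, shSLX1shSLY, shSLY, shSLX1, WT), with points coloured by array set and grey marks for the mean ± SD. For Ndufv3 all 6 arrays with the shSLY transgene lie below the 7 others, and for the other 6 genes replicate 3 of shSLY and of shSLX1 lies closer to shSLX1shSLY than replicates 1 and 2 do.

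Ndufv3, an accessory subunit of the NADH-binding arm of complex I, had the smallest adjusted p of the members in shSLX1shSLY and in shSLY against WT. It read 9.78, 9.59 and 9.75 in shSLX1shSLY, 9.82, 10.07 and 9.67 in shSLY, 10.60, 10.56 and 10.14 in shSLX1, and 10.48, 10.41, 10.33 and 10.36 in WT. All 6 arrays with the shSLY transgene were below all 7 without it, as was also so for Ndufa5, Uqcr10 and Cox5b, or 4.94% of members against 1.53% of all genes. For none of these 4 genes did another kept probe keep the 6 arrays below the 7. Ndufv3 fell in shSLX1shSLY against WT (log2 -0.69 ± 0.15, 1.61-fold, adjusted p = 0.0159) and against shSLX1 (-0.73 ± 0.16, 1.66-fold, adjusted p = 0.0103). In shSLY against WT it had a log2 difference that was not called (-0.54 ± 0.15, adjusted p = 0.0606). Over 26 alternative analyses of shSLY against WT, its limma adjusted p ran from 0.00133 to 0.207 and its log2 difference from -0.65 to -0.43. It was called in 0 of them, as it missed the adjusted p or the 1.5-fold threshold each time. In shSLX1 against WT the difference was near 0 (0.04 ± 0.15, adjusted p = 0.941). Within array sets the difference had the same direction: shSLY 1 and 2 against WT 1 and 2 gave -0.49 ± 0.13 (adjusted p = 0.0988), and shSLX1shSLY against shSLX1 3 gave -0.43 ± 0.15 (adjusted p = 0.172). With the set as a block, shSLX1shSLY against WT was -0.33 ± 0.15 (adjusted p = 0.463). A second Ndufv3 probe read 8.43, 8.26 and 8.87 in shSLX1shSLY, 8.88, 8.88 and 8.27 in shSLY, 9.99, 9.46 and 8.67 in shSLX1, and 9.51, 9.48, 9.49 and 9.07 in WT, and in a fit over every kept probe it was lower in shSLX1shSLY than in WT by a log2 difference of -0.87 ± 0.26 (adjusted p = 0.0462). On this probe the 5 arrays of set 3 were below the 8 others, and the groups with and without the shSLY transgene overlapped. Another Ndufv3 probe was detected on 3 arrays and differed by 0.06 ± 0.16 (adjusted p = 0.811). The platform annotation assigns these further probes to a different Ndufv3 transcript than the brightest probe, so they need not read the same RNA.

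Ndufa11, a membrane-arm accessory subunit of complex I, read 8.57, 8.53 and 8.40 in shSLX1shSLY, 8.97, 9.13 and 8.60 in shSLY, 9.29, 9.19 and 8.70 in shSLX1, and 9.37, 9.27, 9.02 and 9.06 in WT. It fell in shSLX1shSLY against WT (-0.68 ± 0.17, 1.60-fold, adjusted p = 0.0271), and replicate 3 of both single knockdowns lay below all WT arrays too. With the set as a block the difference was -0.18 ± 0.15 (adjusted p = 0.743). Among the complex I genes not called, Ndufb10 had the largest SD of all members within shSLY (0.75) and Ndufb4 within shSLX1 (1.10). Both were singled out after their values were seen. Ndufb10, a membrane-arm subunit, read 7.24, 6.98 and 7.35 in shSLX1shSLY, 8.33, 8.61 and 7.19 in shSLY, 8.81, 8.32 and 6.85 in shSLX1, and 8.36, 8.14, 8.47 and 7.44 in WT, so the low values of this probe were those of set 3 and of WT 4. Its other probe, also detected on all arrays, read 7.54, 8.56 and 7.97 in shSLX1shSLY, 7.44, 5.14 and 8.18 in shSLY, 7.27, 8.73 and 9.0 in shSLX1, and 6.58, 8.01, 8.07 and 8.74 in WT, where shSLY 3 and shSLX1 3 were the highest of their groups and WT 4 the highest of WT, so the pattern of the brighter probe was not seen on it. Ndufb4, of the same arm, read 7.23, 7.41 and 7.79 in shSLX1shSLY, 6.30, 6.14 and 7.45 in shSLY, 5.79, 5.41 and 7.47 in shSLX1, and 6.71, 6.49, 6.13 and 5.97 in WT, so the 5 arrays of set 3 were the highest. Ndufs8, an iron-sulfur subunit of the peripheral arm, was the member with the smallest adjusted p in shSLX1 against WT. It read 9.43, 9.39 and 9.61 in shSLX1shSLY, 9.08, 9.24 and 9.16 in shSLY, 9.33, 9.44 and 9.52 in shSLX1, and 9.23, 9.23, 8.98 and 8.94 in WT, with all shSLX1 arrays above all WT arrays (0.33 ± 0.13, adjusted p = 0.313). The 7 complex I assembly factors had differences between -0.49 (Ndufaf7, adjusted p = 0.101) and 0.27 (Ndufaf4, adjusted p = 0.278) in shSLX1shSLY against WT, and 0 were called.

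Complex II, succinate dehydrogenase, was measured by Sdhb, Sdhc and Sdhd, and none was called. Sdhc, a membrane anchor, read 7.39, 7.40 and 7.42 in shSLX1shSLY, 8.35, 8.24 and 7.53 in shSLY, 7.80, 8.0 and 7.19 in shSLX1, and 8.10, 7.94, 8.05 and 8.07 in WT (shSLX1shSLY against WT -0.64 ± 0.21, adjusted p = 0.0575). Sdhd, the other anchor, had the opposite sign, with 5.98, 6.37 and 5.96 in shSLX1shSLY, 5.34, 5.28 and 6.23 in shSLY, 6.01, 4.92 and 6.03 in shSLX1, and 5.48, 5.37, 5.33 and 5.77 in WT (shSLX1shSLY against WT 0.61 ± 0.27, adjusted p = 0.143). For both anchors the shSLY array of set 3 stood with shSLX1shSLY rather than with shSLY 1 and 2. Sdhb, the iron-sulfur subunit, had a difference of 0.19 ± 0.12 in shSLX1shSLY against WT (adjusted p = 0.289), which is also the complex II median. A second Sdhb probe, also detected on all arrays, read 9.10, 9.14 and 9.54 in shSLX1shSLY. In WT this second probe read 9.44, 9.49, 9.43 and 9.64, so shSLX1shSLY 1 and 2 lay below all WT arrays. The sign of the complex II median thus rests on the brighter Sdhb probe. The flavoprotein Sdha was detected on no array.

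None of the 7 complex III genes was called. Uqcrh, the hinge subunit at the cytochrome c docking site, read 11.16, 11.22 and 11.26 in shSLX1shSLY, 11.77, 11.77 and 11.42 in shSLY, 11.84, 11.50 and 11.31 in shSLX1, and 12.01, 11.87, 11.60 and 11.47 in WT (shSLX1shSLY against WT -0.52 ± 0.17, adjusted p = 0.0562). Uqcr10, a small structural subunit, read 12.80, 12.61 and 12.61 in shSLX1shSLY, 12.76, 12.79 and 12.72 in shSLY, 12.91, 12.89 and 12.85 in shSLX1, and 13.09, 13.02, 12.89 and 12.88 in WT. It was below all WT arrays in both shSLX1shSLY (-0.29 ± 0.12, adjusted p = 0.108) and shSLY (-0.21 ± 0.12, adjusted p = 0.420). The Rieske protein gene Uqcrfs1 had the largest SD of all members within WT, 0.50, with 5.52 and 5.62 in WT 1 and 2 and 6.60 and 6.19 in WT 3 and 4.

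**Figure D5:**
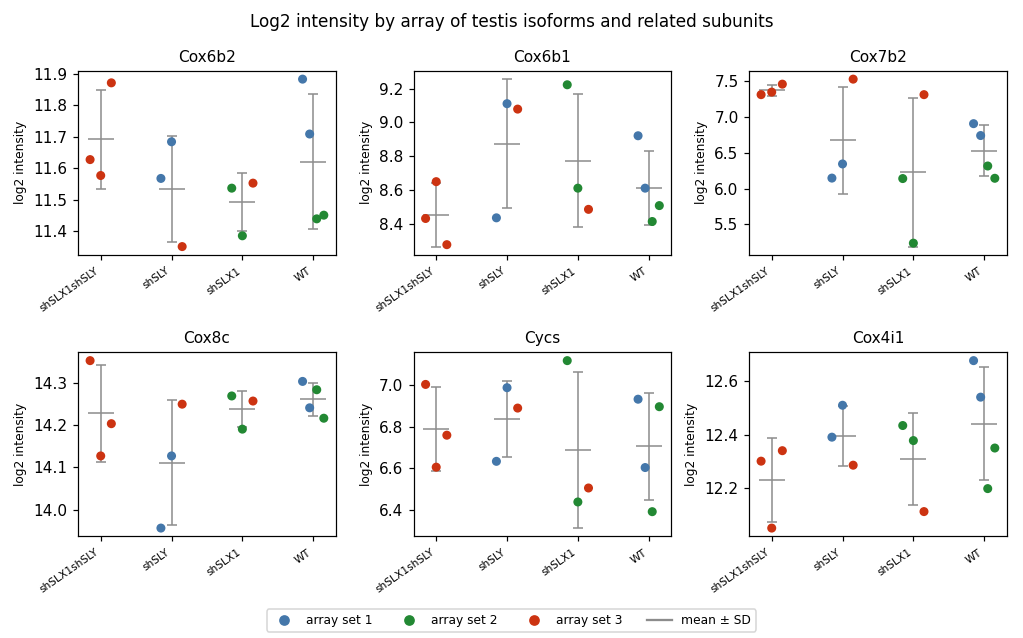
Log2 intensity (y axis) of Cox6b2, Cox6b1, Cox7b2, Cox8c, Cycs and Cox4i1 in each array, by group (x axis, shSLX1shSLY, shSLY, shSLX1, WT), with points coloured by array set and grey marks for the mean ± SD. The shSLX1shSLY and WT arrays overlap in every panel but that of Cox7b2, where all 5 arrays of set 3, at 7.31 and above, exceed the rest.

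The testis isoforms of complex IV did not pass the test in any comparison. Cox8c, the testis form of subunit 8, read 14.35, 14.13 and 14.20 in shSLX1shSLY, 13.96, 14.13 and 14.25 in shSLY, 14.27, 14.19 and 14.26 in shSLX1, and 14.30, 14.24, 14.28 and 14.22 in WT. The 95% interval of its log2 difference from WT was -0.29 to 0.22 for shSLX1shSLY, -0.41 to 0.11 for shSLY and -0.28 to 0.23 for shSLX1. Cox6b2, the testis form of subunit 6b, read 11.63, 11.58 and 11.87 in shSLX1shSLY, 11.57, 11.68 and 11.35 in shSLY, 11.54, 11.38 and 11.55 in shSLX1, and 11.88, 11.71, 11.44 and 11.45 in WT. The shSLX1shSLY difference from WT was 0.07 ± 0.15 (adjusted p = 0.773, interval -0.24 to 0.39) on this probe. A second Cox6b2 probe, also detected on all arrays, read 10.08, 9.61 and 10.31 in shSLX1shSLY. In WT this second probe read 10.68, 10.77, 10.03 and 9.95, so WT 1 and 2 lay above all shSLX1shSLY arrays. It read 10.65, 11.04 and 9.46 in shSLY and 9.87, 9.86 and 9.99 in shSLX1. The somatic counterpart Cox6b1 read 8.43, 8.65 and 8.28 in shSLX1shSLY, 8.44, 9.11 and 9.08 in shSLY, 9.22, 8.61 and 8.49 in shSLX1, and 8.92, 8.61, 8.41 and 8.51 in WT (shSLX1shSLY against WT -0.16 ± 0.21, adjusted p = 0.629, interval -0.61 to 0.29). Cox7b2, the testis form of subunit 7b, read 7.31, 7.35 and 7.46 in shSLX1shSLY, 6.15, 6.34 and 7.53 in shSLY, 6.14, 5.24 and 7.31 in shSLX1, and 6.91, 6.74, 6.32 and 6.14 in WT (shSLX1shSLY against WT 0.85 ± 0.40, adjusted p = 0.162). High values were again those of set 3, and with the set as a block the difference was -0.61 ± 0.26 (adjusted p = 0.415). The somatic form Cox7b was detected on no array, and so were Cox4i2 and Cox6a2, which are lung and muscle isoforms. Whether this reflects the RNA or the probes was not tested. Cox8a, the somatic counterpart of Cox8c, had no probe under that symbol. Cox8b, the muscle isoform of subunit 8, was detected on 1 WT array alone.

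Cox7a2, the widely expressed form of subunit 7a, was the 1 complex IV gene called. It read 10.44, 10.27 and 10.45 in shSLX1shSLY, 9.74, 9.60 and 10.32 in shSLY, 10.01, 9.63 and 10.39 in shSLX1, and 9.81, 9.63, 9.72 and 9.84 in WT, and rose in shSLX1shSLY against WT (0.63 ± 0.19, 1.55-fold, adjusted p = 0.0466). Both replicate 3 arrays of the single knockdowns were as high as shSLX1shSLY, and with the set as a block the difference was 0.02 ± 0.17 (adjusted p = 0.979). Its relative Cox7a2l, which links complexes III and IV into supercomplexes, had the opposite direction in set 3. It read 9.45, 9.66 and 9.54 in shSLX1shSLY, 10.30, 10.32 and 9.68 in shSLY, 10.43, 10.10 and 9.70 in shSLX1, and 10.31, 10.32, 9.95 and 9.98 in WT (shSLX1shSLY against WT -0.59 ± 0.20, adjusted p = 0.0646). The muscle form Cox7a1 was detected on 6 arrays, with a difference of -0.30 ± 0.16 in shSLX1shSLY against WT (adjusted p = 0.218). Cox4i1 and Cox6a1, the widely expressed forms of subunits 4 and 6a, differed by -0.21 ± 0.15 and -0.29 ± 0.16 in the same comparison (adjusted p = 0.348 and 0.245).

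Complex V, the ATP synthase, held 4 of the 7 called genes, 2 in each direction. Atp5a1, the catalytic-head subunit alpha, read 8.44, 8.35 and 8.48 in shSLX1shSLY, 7.35, 7.19 and 8.36 in shSLY, 6.81, 6.80 and 8.33 in shSLX1, and 7.52, 7.38, 6.96 and 7.11 in WT. It rose in shSLX1shSLY against WT (1.18 ± 0.34, 2.27-fold, adjusted p = 0.0396), while all 5 arrays of set 3 lay between 8.33 and 8.48 and the other 8 at or below 7.52. With the set as a block the difference turned to -0.12 ± 0.14 (adjusted p = 0.821). Atp5b, the beta subunit of the same head, had a difference of -0.17 ± 0.12 (adjusted p = 0.371). Atp5md, a small membrane subunit, read 6.41, 6.45 and 6.35 in shSLX1shSLY, 5.71, 5.59 and 6.25 in shSLY, 5.45, 5.39 and 6.08 in shSLX1, and 6.10, 5.87, 5.22 and 5.42 in WT, and rose in shSLX1shSLY (0.75 ± 0.23, 1.68-fold, adjusted p = 0.0482). Here WT 1 at 6.10 reached the level of shSLX1 3.

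Atp5g2, which encodes the c-ring subunit and is 1 of several genes for the same mature protein, read 5.55, 5.36 and 5.57 in shSLX1shSLY, 6.30, 6.83 and 5.73 in shSLY, 6.36, 6.59 and 6.0 in shSLX1, and 6.12, 6.61, 6.07 and 6.15 in WT. It fell in shSLX1shSLY against WT (-0.74 ± 0.23, 1.67-fold, adjusted p = 0.0480) and against shSLX1 (-0.83 ± 0.24, 1.77-fold, adjusted p = 0.0485), and without background correction both calls were lost (adjusted p = 0.0799 and 0.0803). Atp5g3, another gene for that protein, had an shSLX1shSLY difference from WT of -0.01 ± 0.14 (adjusted p = 0.955). Atp5j, coupling factor 6 of the peripheral stalk, read 10.10, 10.28 and 10.51 in shSLX1shSLY, 10.73, 10.91 and 10.35 in shSLY, 10.75, 10.89 and 10.23 in shSLX1, and 10.99, 10.92, 10.94 and 10.80 in WT, and fell in shSLX1shSLY against WT (-0.61 ± 0.18, 1.53-fold, adjusted p = 0.0417). Its low values on shSLY and shSLX1 arrays were those of set 3, and with the set as a block the difference was -0.08 ± 0.18 (adjusted p = 0.912). A second Atp5j probe, also detected on all arrays, read 7.95, 7.92 and 7.83 in shSLX1shSLY, 8.05, 8.12 and 8.22 in shSLY, 8.32, 8.17 and 8.21 in shSLX1, and 8.36, 8.20, 8.14 and 8.21 in WT (-0.33 ± 0.12, adjusted p = 0.0803 in the fit over every kept probe). On that probe shSLX1shSLY was below all 10 other arrays, and shSLY 3 and shSLX1 3 read within the range of WT and not with shSLX1shSLY.

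Cycs, the somatic cytochrome c that shuttles electrons to complex IV, read 7.0, 6.61 and 6.76 in shSLX1shSLY, 6.63, 6.99 and 6.89 in shSLY, 7.12, 6.44 and 6.51 in shSLX1, and 6.93, 6.60, 6.39 and 6.90 in WT, and its groups overlapped throughout. The testis form Cyct was detected on no array, with a lowest detection p of 0.597, so no level of it is given. Ndufs1, of the peripheral arm of complex I, and the assembly factor Ndufaf6 were likewise detected nowhere, so 8 of the 89 genes have no value here. The sequences of the probes were not used here, and cross-hybridization to the processed pseudogenes that many of these genes have was not examined.

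The promoters of the members, which played no part in their choice, were searched for short motifs of factors known to act on mitochondrial genes, or, for the cyclic AMP response element, on genes of spermatids. RefSeq promoters (GRCm38.p6, 250 bases before to 50 after the start) were at hand for 74 of the 89 genes, with 79 promoters. The 4 motifs, searched on both strands, were the core of the NRF1 site GCGCATGC, the core of the GABPA site CCGGAAG, the core of the YY1 site AAGATGGC and the cyclic AMP response element TGACGTCA. The NRF1 core was found in 13 of 79 member promoters (16.5%), in 4.78% of the promoters of genes with a kept probe and in 2.71% of all 32851 promoters. The GABPA core was in 18 member promoters (22.8%), against 15.8% and 8.86%, the YY1 core in 11 (13.9%), against 4.14% and 2.75%, and the response element in 5 (6.33%), against 3.02% and 1.79%. The NRF1 letters and their reverse complement overlap each other within the palindrome of the full site, and no 2 different motifs overlapped in a member promoter. A match is a description of the letters and not a binding site. Shown are Ndufv3 and Ndufa11, which were called lower in shSLX1shSLY, the cytochrome c pair Cycs and Cyct, and the pair Cox6b1 and Cox6b2, with motif matches in capitals.
Ndufv3, chr17:31519865-31520164, plus strand: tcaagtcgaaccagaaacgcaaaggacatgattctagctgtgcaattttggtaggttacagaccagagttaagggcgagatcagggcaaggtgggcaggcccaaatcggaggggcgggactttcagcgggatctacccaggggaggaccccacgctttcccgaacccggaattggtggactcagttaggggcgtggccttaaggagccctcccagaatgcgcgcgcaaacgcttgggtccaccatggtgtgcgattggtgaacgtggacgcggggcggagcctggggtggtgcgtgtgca
Ndufa11, chr17:56717512-56717811, plus strand: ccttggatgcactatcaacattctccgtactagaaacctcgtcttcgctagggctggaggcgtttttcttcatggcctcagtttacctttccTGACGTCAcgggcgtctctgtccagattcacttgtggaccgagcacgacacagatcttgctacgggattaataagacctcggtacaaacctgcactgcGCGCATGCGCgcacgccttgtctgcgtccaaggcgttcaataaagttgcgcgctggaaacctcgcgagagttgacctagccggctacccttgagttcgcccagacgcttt
Cycs, chr6:50566520-50566819, minus strand: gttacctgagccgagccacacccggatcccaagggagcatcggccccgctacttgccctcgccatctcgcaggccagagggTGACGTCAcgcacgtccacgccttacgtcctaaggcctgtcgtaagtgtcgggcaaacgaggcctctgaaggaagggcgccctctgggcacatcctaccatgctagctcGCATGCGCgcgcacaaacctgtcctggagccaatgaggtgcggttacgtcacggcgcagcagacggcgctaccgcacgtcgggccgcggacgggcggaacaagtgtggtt
Cyct, chr2:76360404-76360703, minus strand: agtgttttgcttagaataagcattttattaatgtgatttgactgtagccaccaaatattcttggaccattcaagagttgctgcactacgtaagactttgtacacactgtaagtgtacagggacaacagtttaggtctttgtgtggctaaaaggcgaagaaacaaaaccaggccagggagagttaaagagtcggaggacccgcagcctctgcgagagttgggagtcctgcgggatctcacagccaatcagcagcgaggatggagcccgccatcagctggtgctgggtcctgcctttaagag
Cox6b1, chr7:30626065-30626364, minus strand: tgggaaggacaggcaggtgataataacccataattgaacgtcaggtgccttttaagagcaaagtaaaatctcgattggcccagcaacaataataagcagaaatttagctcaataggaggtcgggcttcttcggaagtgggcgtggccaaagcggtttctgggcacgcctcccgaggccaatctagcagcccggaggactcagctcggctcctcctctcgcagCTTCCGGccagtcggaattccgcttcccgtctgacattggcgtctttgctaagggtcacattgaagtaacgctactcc
Cox6b2, chr7:4753045-4753344, minus strand: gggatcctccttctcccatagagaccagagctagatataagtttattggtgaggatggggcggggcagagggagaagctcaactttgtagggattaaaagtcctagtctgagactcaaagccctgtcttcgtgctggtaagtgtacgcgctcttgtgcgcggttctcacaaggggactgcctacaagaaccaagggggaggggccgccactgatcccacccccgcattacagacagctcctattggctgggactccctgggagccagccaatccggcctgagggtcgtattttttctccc
Of these windows, Ndufa11 held 2 overlapping NRF1 matches and a response element, Cycs held both motifs as well, Cox6b1 held a GABPA match, and Ndufv3 and the testis forms Cyct and Cox6b2 held none of the 4 motifs. Of the other called genes, Atp5j and Atp5md, which moved in opposite directions, both held a GABPA match, Atp5j also held a YY1 match, and Atp5g2 held the NRF1 core.

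Some genes were read by several probes on the same arrays. Of 23 members with more than 1 kept probe, all probes had 1 direction in 11 and opposite directions in 12 in shSLX1shSLY against WT, and among the 21 with at least 2 probes detected on all arrays the numbers were 14 and 7. Ndufa5, a peripheral-arm subunit of complex I, had probes of opposite sign. In a fit over every kept probe, its brighter probe read 11.27, 11.44 and 11.08 in shSLX1shSLY, 11.31, 11.44 and 11.37 in shSLY, 11.97, 11.66 and 11.49 in shSLX1, and 11.60, 11.46, 11.73 and 11.51 in WT (shSLX1shSLY against WT -0.32 ± 0.15, adjusted p = 0.148). Its other probe read 8.78, 8.91 and 8.88 in shSLX1shSLY, 7.54, 7.61 and 8.71 in shSLY, 7.47, 7.34 and 8.78 in shSLX1, and 7.77, 7.58, 7.34 and 7.46 in WT, a difference of 1.32 ± 0.32 (adjusted p = 0.0233). The 5 high values of the other probe were the 5 arrays of set 3, while the brighter probe did not set these 5 apart. The 4 probes of Atp5pb, a peripheral-stalk subunit, gave -0.14 ± 0.14 (adjusted p = 0.526), -0.55 ± 0.18 (adjusted p = 0.0582), -0.01 ± 0.13 (adjusted p = 0.972) and 0.66 ± 0.24 (adjusted p = 0.0766) in shSLX1shSLY against WT, and the last of them was detected on 7 arrays.

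Of the genes around the pathway, 7 of 13 mitochondrially encoded subunits had a tested probe, and their median was 0.50 in shSLX1shSLY, 0.01 in shSLY and 0.15 in shSLX1 against WT. By array, their median relative to the WT mean was 0.46, 0.19 and 0.79 in shSLX1shSLY, -0.35, -0.23 and 0.54 in shSLY, 0.24, -0.04 and 0.60 in shSLX1 and between -0.06 and 0.03 in WT, so shSLY 3 and shSLX1 3, of set 3, were the highest of their groups. ND5, a complex I subunit, was the 1 called. It read 7.18, 7.02 and 7.93 in shSLX1shSLY, 5.95, 6.43 and 6.71 in shSLY, 7.90, 7.19 and 7.94 in shSLX1, and 6.22, 6.10, 6.68 and 6.17 in WT, and rose in shSLX1shSLY (1.08 ± 0.25, adjusted p = 0.0227) and in shSLX1 (1.38 ± 0.25, adjusted p = 0.00785) against WT. High ND5 values were found in sets 2 and 3 alike, on every array with the shSLX1 transgene and on none without it. Of 31 tested assembly factors outside the rule, 0 rose and 3 fell in shSLX1shSLY against WT (Pet100, Oxa1l and Atpaf2, log2 -0.82 to -0.92), and for all 3 shSLY 3 and shSLX1 3 were the lowest of their groups. Acad9, a complex I assembly factor of the acyl-CoA dehydrogenase family, read 4.75, 5.22 and 5.06 in shSLX1shSLY, 5.80, 5.62 and 5.54 in shSLY, 6.65, 6.36 and 6.36 in shSLX1, and 5.52, 5.48, 5.25 and 5.67 in WT. It rose in shSLX1 against WT (0.98 ± 0.15, adjusted p = 0.00174), fell in shSLX1shSLY against shSLX1 (-1.45 ± 0.16, adjusted p = 9.53e-05) and was called in the interaction (-1.62 ± 0.22, adjusted p = 0.00121).

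Slc25a5, an ADP/ATP carrier, was the 1 of 5 tested carrier and porin genes called, and rose in shSLY against WT (0.95 ± 0.19, adjusted p = 0.00955), with 7.60, 8.35 and 7.85 in shSLY and 6.92, 6.92, 6.91 and 7.18 in WT. Of 14 tested genes of the tricarboxylic acid cycle, Idh3g, a subunit of NAD-dependent isocitrate dehydrogenase, rose in shSLY against WT (0.59 ± 0.15, adjusted p = 0.0468), and none was called in the other comparisons with WT. Of 12 tested regulators of mitochondrial biogenesis, among them Ppargc1a, Nrf1, Esrra and Tfam, 0 were called in any comparison with WT (1 higher and 1 lower in shSLX1shSLY at an unadjusted p under 0.05, 0 and 0 in shSLY, 1 and 1 in shSLX1). Among markers of other testis cells, the macrophage gene Adgre1 rose in shSLX1shSLY against WT (0.90 ± 0.26, adjusted p = 0.0405) and the smooth muscle gene Myh11 in shSLX1 against WT (1.24 ± 0.15, adjusted p = 0.000241), as 1 of 7 and 1 of 3 tested. The summed signal of the 7 macrophage markers ranged from 351 to 495 on shSLX1shSLY arrays, from 517 to 622 on shSLY arrays, from 388 to 506 on shSLX1 arrays and from 275 to 603 on WT arrays, and their median relative to the WT mean was -0.48, 0.40 and -0.24 in shSLX1shSLY, 0.40, 0.44 and 0.59 in shSLY, 0.31, 0.06 and -0.06 in shSLX1 and between -0.42 and 0.59 in WT. At an unadjusted p under 0.05, 4 of the 7 were higher and 0 lower in shSLY against WT, 1 was higher and 0 lower in shSLX1shSLY, and 0 were higher or lower in shSLX1. The part of the macrophage and muscle markers in the results above was not tested. Of the tested markers of spermatocytes (5), spermatogonia (4), Sertoli cells (5), Leydig cells (3) and red blood cells (2), 0 were called against WT. By the same unadjusted p, 2 Leydig and 2 red blood cell markers were higher in shSLY, and 2 Sertoli markers were lower in shSLX1. The red blood cell pair was higher in shSLY by a median log2 difference of 1.98. By array, the median of this pair relative to the WT mean was 2.30, 2.92 and 0.71 in shSLY. It was 0.35, 2.27, -1.09 and -1.53 in WT, so WT 2 lay near shSLY 1 and above shSLY 3. Whether these differences bear on the members was not tested.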

How the data were processed

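The authors deposited bead summary intensities of 45281 probes for 13 arrays on the linear scale, neither normalized nor background subtracted, with a detection p-value per probe and array taken from negative controls. The authors also deposited a table of normalized intensities, which was used as an alternative. The submitters' processing notes name GenomeStudio 2011.1 and the methods BeadStudio. The neqc function of limma 3.58.1 (R 4.3.3) subtracted the background, added an offset of 16, which compresses low values, made the quantiles of the arrays equal and took log2. The filter on detection (p under 0.05 on 3 or more of 13 arrays) left 20250 probes, and the probe with the highest mean stood for a gene. Gene symbols came from the platform annotation: 34885 probes had 1 symbol, 18 several and 10378 none. limma was fitted to all 13 arrays with a mean per group, the Benjamini-Hochberg adjustment ran over all 14660 genes, and a call needed an adjusted p under 0.05 and a change over 1.5-fold. Array sets came from Ward clustering of the log2 signals of probes detected on no array. Figures and motif searches used Python 3.11.15.

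The genes named by rule were those called, the members with the smallest adjusted p in each complex over all comparisons with the interaction included, the testis isoforms with their counterparts, and genes whose probes disagreed. Ndufb4, Ndufb10, Ndufs8, Uqcrfs1, Sdhb, Atp5b and Atp5g3 were added after their values were seen. Members, gene lists and tests were chosen with earlier results of these data known. The labels do not say that replicates came from separate animals throughout, so p-values measure the spread between these samples, whose small number limits precision. The scripts were tested on simulated data. Same-numbered replicates were compared by the correlation of their deviations from the group means, which was 0.11, 0.25 and 0.25 for shSLY with WT and 0.17, 0.27 and 0.46 for shSLY with shSLX1, and was not above 0.1 in every pair of the other groups. The replicate number is not stated to mark a shared batch, and a fit with it as a block was an alternative. The alternatives changed background correction, scaling, filter, probe choice, variance model, array weights and blocks, and left out each array in turn. Those within array sets, and that without both set 3 arrays of the single knockdowns, were chosen after seeing the data.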

Additional observations from a re-analysis of the deposited data

Results flagged for a closer look

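In groups of 4 arrays, that is in WT, a Dixon test at the 95% level marked 4 of the 31 values examined, and chance alone marks some. Atp5g2 in WT 2 read 6.61, with the next WT array at 6.15. The median of the assembly factors, relative to the WT mean, was 0.034 in WT 1, against -0.011 in the nearest WT array. The median of complex II was -0.099 in WT 2, against 0.0092 in the nearest, and that of complex III was -0.048 in WT 4, against 0.011 in the nearest.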

How the results depend on the processing

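For single genes, 3122 of 3270 alternative values over 132 results kept their side of the threshold, 95 lost the call, 52 gained one and 1 that had been called reversed, Atp5a1 in shSLX1shSLY against WT with the block on the array set (-0.12). Of those that kept their side, 201, called under neither setting, had the other sign, among them Cox7b2 (-0.61), Sdhc and Cox7a2l in that same fit and comparison. The number of members called in shSLX1shSLY against WT, 7 in the report, was 19 with median scaling, 2 with no filter on detection, 11 over every kept probe, 16 with only the groups compared, 16 with array weights, 0 when the array set was a block and 15 without the set 3 arrays of the single knockdowns. The share of all genes called, 8.89% in the report, was 18.1%, 2.31%, 9.58%, 12.9%, 15%, 0.300% and 13.2% in these settings, in that order. Against shSLX1, in place of 2, the number of members was 1 with no background correction, an offset of 50, the authors' normalized values, no filter, a stricter detection filter, every kept probe, only the groups compared or an intensity-dependent prior, 0 with median scaling, when the set was a block and inside set 3, and 13 with array weights. With array weights it was 12 against shSLY and 6 for the interaction. In that setting the share of all genes called was 16.2% against shSLX1, 17.7% against shSLY and 8.52% for the interaction, beside 16%, 14.8% and 7.41% of members. Leaving out 1 array at a time gave 1 to 13 calls against WT, 0 to 6 against shSLY (6 without shSLY replicate 3) and 0 to 13 against shSLX1 (0 without shSLX1 replicate 2, 13 without shSLX1 replicate 3, 4 without shSLY replicate 3). Of all genes, 12.7% were called against shSLY without shSLY replicate 3, and 17.8% against shSLX1 without shSLX1 replicate 3.

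The members' median moved with median scaling to -0.345 in shSLX1 and -0.517 in shSLX1shSLY against WT and to -0.353 in shSLX1shSLY against shSLY, where the medians of all genes were -0.250, -0.300 and -0.267. With the set as a block it was -0.0064 in shSLX1shSLY against shSLY and -0.043 against shSLX1, and within sets it was -0.126 in shSLY against WT and -0.029 in shSLX1shSLY against shSLX1. Leaving out 1 array gave -0.099 to -0.015 in shSLX1shSLY against shSLY, -0.102 to 0.0043 in shSLY and -0.099 to -0.0062 in shSLX1 against WT. With the replicate block, the members called were 0 in shSLY, 0 in shSLX1 and 7 in shSLX1shSLY against WT, 0 against shSLY, 2 against shSLX1 and 0 for the interaction, although Atp5a1, Atp5j and Atp5md lost their calls (adjusted p = 0.0517, 0.0524 and 0.109). The cause of these shifts was not tested. Signals near background, such as those of Atp5md, Sdhd and Acad9, limit the precision of their differences.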
